A study of Mus musculus with 16 samples.

Results

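Guanylate-binding proteins (GBPs) and immunity-related GTPases (IRGs) are families of GTP-hydrolysing enzymes that cells make in response to interferon. RNA levels of 10 of these genes, chosen by their symbols out of the 55487 genes of the count table, were followed in mouse bone marrow-derived macrophages (BMDMs), cells that mature into macrophages in culture. The 5 GBP genes were Gbp2, Gbp3, Gbp5, Gbp6 and Gbp7, and the 5 IRG genes were Iigp1, Irgm1, Irgm2, Igtp and Ifi47. All 10 are in the table, and 9 passed the filter on low counts and were tested. Gbp6 did not pass it. Tumor medium moved the GBPs and IRGs among these members in opposite directions. Of the 4 GBPs tested, all 4 were higher in tumor medium, by 4.16- to 15.6-fold between group means, and of the 5 IRGs tested, 4 were lower. Over all genes tested, 20.9% were called higher and 24.1% lower there. Among these IRGs, Iigp1 passed the filter only through the samples with neither tumor medium nor drug. The JAK inhibitor ruxolitinib lowered 4 IRGs in tumor medium, where 2.13% of all genes were called lower. None of the 4 GBPs was called there in the main test. Their means stood at 64.3% (Gbp7), 85.8% (Gbp3), 92.2% (Gbp2) and 134% (Gbp5) of the level without the drug. In alternative fits, Gbp7 was called lower there in 6 of 15 and Iigp1 in 4 of 13. The fit with the replicate number as a block called both. An IKK inhibitor added to ruxolitinib lowered Gbp3, Gbp5 and Gbp7 and none of the IRGs, where 3.66% of all genes were called lower. Gbp2 was also called lower there in 7 of 15 alternative fits, among them that with the block.

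GBPs are large GTPases that assemble on the membranes of bacteria and of the vacuoles in which parasites and bacteria live, and they help to open these vacuoles and to start inflammasome signalling. IRGs act on the same vacuoles. Iigp1 and Ifi47 are among those that load onto the vacuole, while Irgm1, Irgm2 and Igtp (also called Irgm3) hold the others inactive on the cell's own membranes. Interferon-γ signals through JAK1 and JAK2, and gamma-activated sequences in promoters respond to it. Type I interferons signal through JAK1 and TYK2 to a complex that holds IRF9 and binds interferon-stimulated response elements. NF-κB, which IKK kinases release into the nucleus, binds κB sites in the promoters of many inflammatory genes.

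The study asked how factors from tumor cells change macrophages, and what JAK inhibition then does to these cells. BMDMs from wild-type (WT) Balb/c mice at an age of 8 weeks were used in all 16 samples. Conditioned medium (CM) came from 4T1 cells, a mouse mammary tumor cell line. The 6 groups were DMEM, the medium without tumor factors (2 samples), DMEM + Rux (3), CM (3), CM + Rux (3), CM + Rux 2 h (2) and, with an inhibitor of IKK, CM + Rux + IKK-16 (3). BMDMs were serum-starved before CM was added for 4 h. Ruxolitinib (0.5 μM) was present from the starvation step on, and IKK-16 (0.8 μM) was given together with CM. The dose and time of ruxolitinib in DMEM and the meaning of the 2 h in that group's label are not stated in the sources used here, so the 2 h samples formed a group of their own. The labels do not say whether samples of a group came from separate mice, and p-values then measure only the spread between these samples, which may be technical.

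Counts of fragments per gene summed to between 18449388 and 46215853 per sample. Levels are given as CPM, counts relative to the total of the sample, after scaling by relative log expression (RLE), or, where genes are compared with each other, as FPKM, the same value per kilobase of exon. Fold changes are log2 values with their standard error (SE) from the quasi-likelihood test of edgeR over 12372 genes, with Benjamini-Hochberg adjusted p-values. To be called, a gene had to pass an adjusted p of 0.05 and change by more than 0.5 on the log2 scale. Where samples of groups are said not to overlap, this describes the genes named. The share of all genes without overlap was not computed. Against scaling by total counts, RLE shifted the median of all log2 values by 0.31 in CM against DMEM and 0.30 in CM + Rux against DMEM + Rux, and by less than 0.1 in size elsewhere. Under total counts 1536 genes were called higher and 4606 lower in CM (main test 2584 and 2980), 1699 and 4674 in CM + Rux against DMEM + Rux (2761 and 3096), and 727 and 350 in CM + Rux + IKK-16 against CM + Rux (504 and 453). The directions given below for named members in CM against DMEM and in CM + Rux against DMEM + Rux held under both scalings, except for Igtp in CM + Rux against DMEM + Rux. Markers of macrophages summed to between 40541 and 57507 CPM per sample with none of the 10 at 0. T and NK cell markers, the cells that make interferon-γ, summed to between 4.84 and 13.1 CPM, with 7 to 9 of 10 at 0 in each group. The 5 fibroblast markers (0 at 0 in each group) summed to 10.8 to 18.8 CPM in the DMEM groups and 5.73 to 20.9 CPM in the CM groups, ranges that overlap. Of the remaining cell types, the dendritic and B cell sums did not overlap between the DMEM and CM groups. The neutrophil and epithelial sums overlapped, with their highest values in the CM groups. The 5 dendritic cell markers (0 to 1 at 0 in a group) summed to 1.01 to 2.18 CPM in the DMEM groups and 3.55 to 17.2 CPM in the CM groups, 8 neutrophil markers (2 to 6 at 0) to 0.236 to 0.491 and 0.386 to 3.24 CPM, 6 epithelial markers (1 to 4 at 0) to 0 to 0.231 and 0.183 to 1.45 CPM, and 5 B cell markers (1 to 3 at 0) to 1.07 to 1.23 and 0.122 to 0.747 CPM. Their part in the results was not tested. Since RNA was taken from whole cultures, fewer cells expressing a gene and less RNA per cell cannot be told apart.

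The genes lie in clusters of GRCm38. Gbp5 (ENSMUSG00000105504, chromosome 3 from 142493978 to 142522344), Gbp7 (142530342 to 142550149), Gbp3 (142560026 to 142573209) and Gbp2 (142620602 to 142638008) follow each other on the plus strand of chromosome 3. Igtp (ENSMUSG00000078853, chromosome 11 from 58199556 to 58207591) overlaps Irgm2 (58199618 to 58222782) on the same strand, and their exons share 162 bases. Irgm1 and Ifi47 lie elsewhere on chromosome 11, and Gbp6 on chromosome 5. Fragments that overlap several genes were not counted, which applies to shared exon bases of Igtp and Irgm2, of Gbp7 (637 shared with Gm43802) and of Gbp6 (1726 of 5954 shared with Gm43302). It also applies to Ifi47, which shares 111 exon bases with Olfr56 on the same strand. GBPs and IRGs are also multigene families with near-copies, whose fragments are not counted where they align to more than 1 place.

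RefSeq gives a promoter for 8 of the 10 members (GRCm38.p6), and none in the tables used for Gbp6 and Iigp1. The 250 bases before the start site were searched on both strands for the gamma-activated sequence (GAS, TTCNNNGAA), the interferon-stimulated response element (ISRE, GAAANNGAA) and a κB site (GGGANTTCC), which are in 7.04%, 7.15% and 1.44% of 32536 promoters. The ISRE letters were found in 7 of the 8 members, all but Ifi47, and the GAS letters in Gbp5, Gbp7, Irgm2 and Igtp. The short κB site was in none of them, while a degenerate κB consensus of 10 letters, added after the promoters were seen and present in 3.92% of all promoters, was in Gbp5 alone. The ISRE letters of Gbp2 and Irgm1 lie in bases that the count table assigns to exons. The promoters of Gbp5 and Gbp7, GBPs raised by CM, and of Irgm2 and Igtp, IRGs lowered by ruxolitinib, were read on the plus strand, with GAS, ISRE and κB letters in capitals and exon bases of the count table left out.
Gbp5, chr3:142496684-142496899: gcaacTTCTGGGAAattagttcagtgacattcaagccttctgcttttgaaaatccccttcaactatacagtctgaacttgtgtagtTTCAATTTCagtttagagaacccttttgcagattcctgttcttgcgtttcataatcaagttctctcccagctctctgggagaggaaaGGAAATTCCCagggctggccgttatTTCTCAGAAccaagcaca
Gbp7, chr3:142530216-142530335: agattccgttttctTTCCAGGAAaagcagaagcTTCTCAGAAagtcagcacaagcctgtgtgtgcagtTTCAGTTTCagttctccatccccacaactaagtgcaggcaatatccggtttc
Irgm2, chr11:58214857-58214976: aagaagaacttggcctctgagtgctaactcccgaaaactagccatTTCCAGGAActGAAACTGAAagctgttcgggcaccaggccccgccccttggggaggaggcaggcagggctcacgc
Igtp, chr11:58199436-58199555: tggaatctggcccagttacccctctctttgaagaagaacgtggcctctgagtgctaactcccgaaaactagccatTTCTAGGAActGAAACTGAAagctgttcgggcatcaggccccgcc
In Gbp5 the capitals mark, in order, a GAS, an ISRE, the κB consensus (77 to 68 bases before the start) and a second GAS (52 to 44 bases before it). Gbp7 holds a pair of GAS followed by an ISRE. In Irgm2 and Igtp a GAS and an ISRE lie next to each other, 75 to 56 and 45 to 26 bases before the start. The RefSeq starts used for Gbp5 and Irgm2 lie inside the genes as counted, which begin at 142493978 and 58199618. These matches are letters in a sequence and do not show that a factor was bound in these cells.

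In DMEM, before any tumor factor was added, the IRGs were the more abundant transcripts per length. Irgm1 led with 18.4 ± 4.58 FPKM (SD, n = 2), followed by Igtp with 14.9 ± 4.02, Ifi47 with 12.8 ± 2.48, Gbp2 with 11.01 ± 2.61 and Irgm2 with 10.6 ± 2.91. Neighbours in this order differed by less than their spread. Gbp3 (4.40 ± 0.08 FPKM), Gbp7 (2.06 ± 0.367) and Gbp5 (1.39 ± 0.523) stood below them, with Iigp1 at 0.636 ± 0.312 and Gbp6 at 0.0523 ± 0.0038 FPKM. In CM this order turned over. Gbp2 led with 54.3 ± 11.3 FPKM (SD, n = 3), followed by Gbp3 with 22.6 ± 2.14 and Gbp5 with 21.8 ± 1.28, which lay within their spread of each other, and then by Igtp with 10.7 ± 1.91, Irgm1 with 9.98 ± 1.67 and Gbp7 with 8.58 ± 0.261. Summed over Gbp2, Gbp3, Gbp5 and Gbp7, the GBPs had 18.9 ± 2.85 FPKM in DMEM (SD, n = 2) and 107 ± 14.5 in CM (SD, n = 3). The sum of Irgm1, Irgm2, Igtp and Ifi47 was 56.8 ± 14.0 FPKM in DMEM and 33.7 ± 6.04 in CM. The ratio of the GBP sum to the IRG sum was 0.253 and 0.445 in the DMEM samples and lay between 2.26 and 4.21 in CM.

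**Figure D1:**
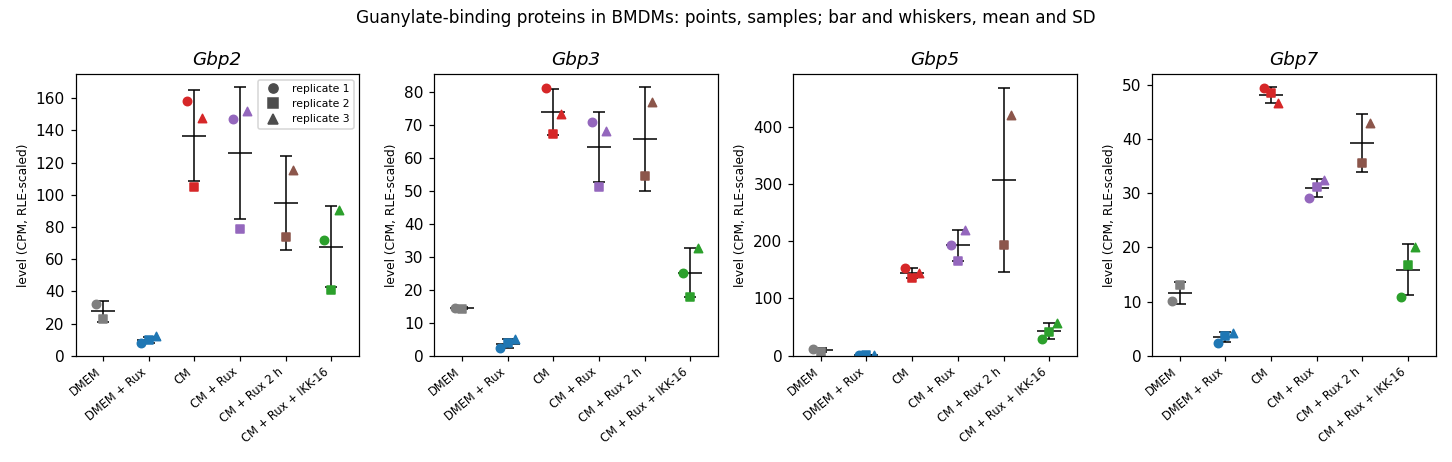
Levels of Gbp2, Gbp3, Gbp5 and Gbp7 in CPM (vertical axis, from 0) in the 6 groups of BMDMs. Symbols are samples by replicate number, and the bar and whiskers give mean and SD of 2 or 3 samples. All 4 genes are lowest in DMEM + Rux, high in CM and in CM + Rux, and lower again in CM + Rux + IKK-16, where Gbp5 falls to between 29.7 and 57.5 CPM.

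CM raised Gbp2, Gbp3, Gbp5 and Gbp7. Calls were frequent over the whole table, at 20.9% of genes higher and 24.1% lower in the CM samples, and among the 9 members tested 4 were called higher and 4 lower. Their median log2 fold change was -0.48, beside -0.005 over all genes, and is the value of Igtp between the families. Gbp5, a GBP linked to the NLRP3 inflammasome, had 11.7 and 6.79 CPM in DMEM and 153, 136 and 144 CPM in CM. Every CM sample lay more than 10-fold above both DMEM samples, and the log2 fold change was 3.95 (SE 0.41, adjusted p = 2.1e-06). Gbp2, which acts on the vacuoles of Toxoplasma and on bacteria, had 32.4 and 23.1 CPM in DMEM and 158, 104.5 and 148 CPM in CM. It rose by 2.30 (SE 0.37, adjusted p = 0.00011). Gbp3 had 14.6 and 14.2 CPM in DMEM and 81.0, 67.1 and 73.4 CPM in CM, a rise of 2.36 (SE 0.27, adjusted p = 5.5e-06). Gbp7, which has been linked to assembly of the phagocyte oxidase, had 10.1 and 13.0 CPM in DMEM and 49.5, 48.5 and 46.6 CPM in CM, a rise of 2.06 (SE 0.23, adjusted p = 4.3e-06). For all 4 GBPs the samples of the groups did not overlap, and the call held under each of the 14 alternatives to which they were put. Gbp6 stayed near the limit of detection, with 0.311 CPM in DMEM and 0.363 CPM in CM, or 18 and 29 fragments summed over the samples. Over all 16 samples it lay between 0 and 0.458 CPM. Without the filter on low counts its log2 fold change was 0.26 (SE 0.67, adjusted p = 0.90).

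The IRGs went down in CM, most of all Iigp1. Iigp1, which loads onto the vacuole of Toxoplasma, had 2.42 and 4.99 CPM in DMEM and 0.167, 0.564 and 0.203 CPM in CM. It was the largest fall of the members, with a log2 fold change of -3.42 (SE 0.57, adjusted p = 0.00014), and rests on 204 fragments in DMEM and 27 in CM. Without CM replicate 2 it was -4.26. Iigp1 exceeded 1 CPM in the DMEM samples alone, so it passed the low-count filter only through the group in which it is high. The filter thus favoured a fall from DMEM for this gene. Without DMEM replicate 1 or 2 it did not pass, and no value was computed. Irgm1 had 88.0 and 126 CPM in DMEM and 48.7, 68.1 and 57.1 CPM in CM, and fell by 0.88 (SE 0.15, adjusted p = 0.00016). Irgm2 (31.7 and 46.9 CPM in DMEM against 17.1, 26.7 and 21.3 CPM in CM) fell by 0.85 (SE 0.18, adjusted p = 0.0012). Ifi47 (27.4 and 36.1 CPM in DMEM against 14.5, 20.96 and 18.03 CPM in CM) fell by 0.82 (SE 0.18, adjusted p = 0.0013). For these IRGs the CM samples lay below both DMEM samples. Igtp was the exception. It had 24.5 and 36.0 CPM in DMEM and 19.3, 26.0 and 19.3 CPM in CM, groups that overlap, and a log2 fold change of -0.48 (SE 0.19, adjusted p = 0.043), which is short of the fold threshold. It was called lower under total counts (-0.80), without CM replicate 2 (-0.64, adjusted p = 0.015) and against DMEM replicate 2 alone (-0.74, adjusted p = 0.011), where the spread comes from the other groups. In both replicate numbers that the groups share, CM held 72.3% to 78.8% of the Igtp level of DMEM, against 54.2% to 55.3% for Irgm1.

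**Figure D2:**
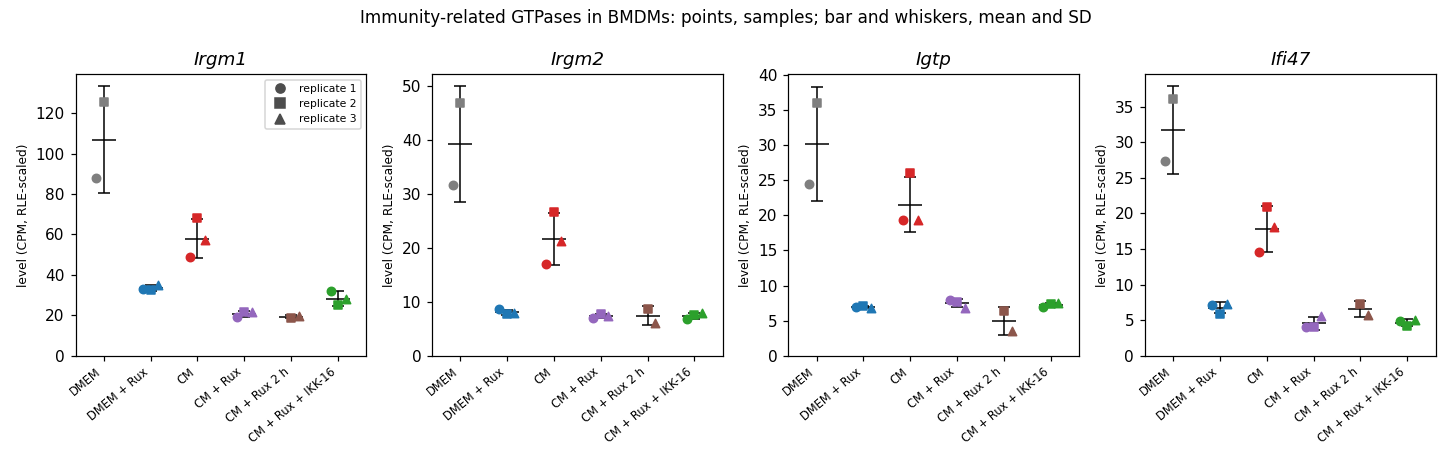
Levels of Irgm1, Irgm2, Igtp and Ifi47 in CPM (vertical axis, from 0) in the 6 groups of BMDMs, drawn as in the plot of GBP levels. By their means the genes are highest in DMEM, between these and the ruxolitinib groups in CM, and low in the 4 groups with ruxolitinib, where Irgm2 lies between 6.13 and 8.64 CPM in CM + Rux, CM + Rux 2 h and CM + Rux + IKK-16.

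Ruxolitinib in DMEM lowered both families. No gene of all tested was called higher (0%), and 0.97% were called lower, among them 8 of the 9 members tested. At an unadjusted p under 0.05, 50 genes were higher and 246 lower, and DESeq2 also called 0 higher and 147 lower. The members' median log2 fold change was -2.11, beside 0.01 over all genes. Gbp5 had 0.784, 0.513 and 1.62 CPM in DMEM + Rux, all below the 6.79 CPM of the lower DMEM sample, and fell by 3.31 (SE 0.47, adjusted p = 0.0012), or by 3.93 without DMEM + Rux replicate 3. Gbp3 had 2.35, 3.72 and 4.92 CPM in DMEM + Rux and fell by 1.94 (adjusted p = 0.0012). Gbp7 had 2.40, 3.72 and 4.204 CPM and fell by 1.72 (adjusted p = 0.00098). Gbp2 fell from 32.4 and 23.1 CPM to 8.07, 9.84 and 12.0 CPM without overlap, but its log2 fold change of -1.47 (SE 0.35) had an adjusted p of 0.085. With the replicate number as a block it was -1.56 (adjusted p = 0.00031). DESeq2 (adjusted p = 0.0011), the likelihood ratio test (0.0015), no low-count filter (8.9e-06) and the model of the compared groups (0.018) called Gbp2 lower too.

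Among the IRGs, Irgm1 was at 33.1, 32.4 and 35.1 CPM in DMEM + Rux and fell by 1.67 (SE 0.15, adjusted p = 1.8e-05). Irgm2 was at 8.63, 7.65 and 7.89 CPM and fell by 2.29 (SE 0.19, adjusted p = 8.5e-06). Igtp was at 6.97, 7.09 and 6.82 CPM and fell by 2.11 (SE 0.20, adjusted p = 2.6e-05). The 3 samples of each of these genes lay close together, while the DMEM samples differed, with replicate 2 above replicate 1. Ifi47 was at 7.06, 5.91 and 7.28 CPM and fell by 2.24 (SE 0.19, adjusted p = 8.5e-06). Iigp1 had 2 fragments over all 3 samples of DMEM + Rux. Set against 3 counts in a library, it was at least 26.8-fold lower than in DMEM (adjusted p = 0.00016), or at least 17.5-fold without DMEM replicate 2. Here too, Iigp1 was tested only because the DMEM samples passed the low-count filter, which favours a fall from DMEM.

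In CM the drug lowered IRG members. In CM + Rux against CM, 1.2% of all genes were called higher and 2.13% lower, and of the 9 members 0 were called higher and 4 lower, all of them IRGs. The median of the members was -1.49, beside 0.007 over all genes. Ifi47 went from 14.5, 20.96 and 18.03 CPM to 4.02, 3.97 and 5.64 CPM, 25.5% of the mean in CM (log2 SE 0.18, adjusted p = 4.1e-05). Irgm1 went to 19.2, 21.4 and 21.4 CPM, a fall of 1.49 (SE 0.14, adjusted p = 5.3e-05). Irgm2 went to 7.06, 7.70 and 7.32 CPM and fell by 1.56 (SE 0.18, adjusted p = 0.00017), and Igtp to 7.98, 7.67 and 6.86 CPM and fell by 1.52 (SE 0.18, adjusted p = 0.00027). All CM + Rux samples lay below all CM samples for these 4 genes, and the calls held under each of 15 alternatives. Iigp1 had 4 fragments over the CM + Rux samples, all in replicate 2, against 27 in CM. Its log2 fold change of -2.96 (SE 0.95) had an adjusted p of 0.11, and of 0.020 with the replicate block. DESeq2 (adjusted p = 0.047), the likelihood ratio test (0.0074) and no low-count filter (0.016) called Iigp1 lower too. The value moved to -2.11 when CM replicate 2 was left out and to -2.33 when CM + Rux replicate 1 was, and without CM + Rux replicate 2 no fragment is left in CM + Rux.

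None of the GBP members was called in CM + Rux against CM in the main test. Outside the members, Gbp4 (-1.97, adjusted p = 0.0060) and Gbp9 (-1.24, adjusted p = 0.0041) were called lower, and Gbp2b was not called. Gbp2 had 147, 78.8 and 152 CPM, overlapping the CM samples, with a log2 fold change of -0.12 (SE 0.30, adjusted p = 0.94). Gbp3 had 70.8, 51.2 and 68.0 CPM, also overlapping, with -0.22 (SE 0.22, adjusted p = 0.75). Replicate 2 was the lowest sample of both genes in CM as well as in CM + Rux. Gbp5 had 193, 166 and 219 CPM, all above the 136 to 153 CPM of CM, with a log2 fold change of 0.42 (SE 0.30, adjusted p = 0.61). Within replicate numbers it stood at 122% to 152% of its level in CM. Gbp7 had 29.2, 31.2 and 32.5 CPM, all below the 46.6 to 49.5 CPM of CM. Its log2 fold change of -0.64 (SE 0.19) had an adjusted p of 0.077. With the replicate block it was 0.0063, and Gbp7 alone of the GBP members was called (Gbp5 0.25, Gbp3 0.39). DESeq2 and the likelihood ratio test (adjusted p = 0.026 in each), no low-count filter (0.0027) and the model of the compared groups (0.0069) called Gbp7 lower too. In that model with the block, Gbp5 (0.41, adjusted p = 0.00015) and Gbp3 (-0.24, adjusted p = 0.0056) were short of the fold threshold. The ratio of the GBP to the IRG sum reached 6.95 to 10.6 in CM + Rux, where Gbp2 (50.1 ± 16.3 FPKM), Gbp5 (29.1 ± 4.00) and Gbp3 (19.4 ± 3.24) stood above all IRGs, which had at most 3.71 ± 0.284 FPKM (SD, n = 3).

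**Figure D3:**
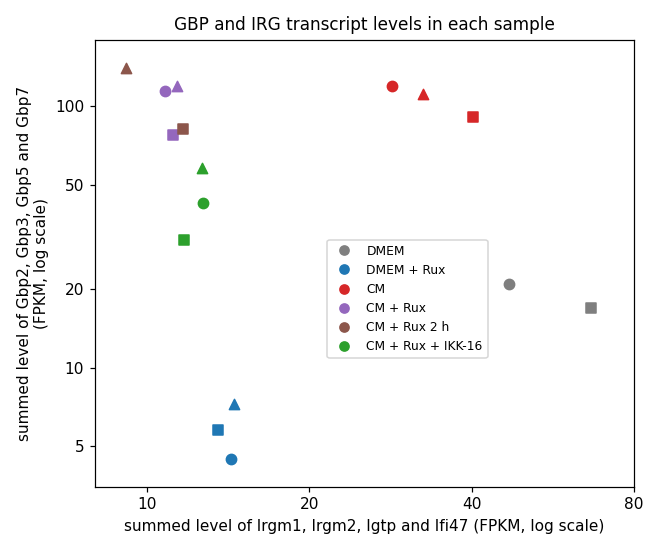
Summed level of Gbp2, Gbp3, Gbp5 and Gbp7 (vertical axis, FPKM, log scale) against that of Irgm1, Irgm2, Igtp and Ifi47 (horizontal axis, FPKM, log scale), 1 point per sample, with symbols for replicates 1 (circle), 2 (square) and 3 (triangle). CM samples lie above the DMEM samples, ruxolitinib groups lie to the left at 9.15 to 14.5 FPKM of IRGs, and CM + Rux + IKK-16 lies below CM + Rux at nearly the same IRG sum.

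The effect of ruxolitinib in CM was set against its effect in DMEM as an interaction. Over all genes 0.234% were called higher and 0.178% lower, and 1 of the 9 members, Gbp5, was called higher. The difference for Gbp5 between the effects was 3.72 (SE 0.56, adjusted p = 0.012), between -3.31 in DMEM and 0.42 in CM. Without DMEM replicate 1, which leaves 1 DMEM sample and takes its spread from the other groups, it was 3.26 (adjusted p = 0.091), and 4.34 when DMEM + Rux replicate 3 was left out. The other GBPs differed in the same direction by 1.35 (Gbp2, SE 0.46, adjusted p = 0.29), 1.72 (Gbp3, SE 0.35, adjusted p = 0.051) and 1.08 (Gbp7, SE 0.30, adjusted p = 0.16), and Gbp3 was called without CM + Rux replicate 2 (1.86, adjusted p = 0.036). With the replicate block 4 members were called, Gbp2 at 1.41 (adjusted p = 0.0063), Gbp3 at 1.79 (adjusted p = 0.0020), Gbp5 at 3.88 (adjusted p = 0.00055) and Gbp7 at 1.18 (adjusted p = 0.013). For the IRGs the difference was 0.18 (Irgm1, SE 0.21), 0.72 (Irgm2, SE 0.26), 0.60 (Igtp, SE 0.27) and 0.24 (Ifi47, SE 0.26), with adjusted p-values of 0.32 to 0.95.

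With ruxolitinib present in both media, CM still raised Gbp2, Gbp3, Gbp5 and Gbp7. In CM + Rux against DMEM + Rux 22.3% of all genes were called higher and 25% lower, and of the 9 members 4 were called higher and 2 lower. Gbp5 differed by 7.67 (SE 0.44, adjusted p = 5.6e-09), from a mean of 0.971 ± 0.575 CPM to 193 ± 26.6 CPM (SD, n = 3 in each), and by 8.29 without DMEM + Rux replicate 3. Gbp3 differed by 4.08 (SE 0.26), Gbp2 by 3.65 (SE 0.34) and Gbp7 by 3.14 (SE 0.22), with adjusted p-values of 1.4e-08, 5e-07 and 2.9e-08. Irgm1 was lower in CM + Rux by 0.70 on the log2 scale (-0.70, SE 0.14, adjusted p = 0.00052) and Ifi47 had a value of -0.59 (SE 0.18, adjusted p = 0.011), which was -0.50 (adjusted p = 0.051) without CM + Rux replicate 2. Irgm2 (-0.13, SE 0.18) and Igtp (0.11, SE 0.19) were not called. This comparison shares samples with those above.

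IKK-16 on top of ruxolitinib lowered GBPs. In CM + Rux + IKK-16 against CM + Rux 4.07% of all genes were called higher and 3.66% lower, and of the 9 members 0 were called higher and 3 lower, all of them GBPs. The median of the members was -0.89, beside -0.002 over all genes. Gbp5 went from 193, 166 and 219 CPM to 29.7, 40.8 and 57.5 CPM, and fell by 2.18 (SE 0.31, adjusted p = 0.00064). Within replicate numbers it kept 15.4% to 26.2% of its level. Gbp3 went to 25.0, 17.8 and 32.7 CPM and fell by 1.33 (SE 0.22, adjusted p = 0.0017). Gbp7 went to 10.8, 16.8 and 20.1 CPM and fell by 0.96 (SE 0.19, adjusted p = 0.0051). For these 3 genes all samples with IKK-16 lay below all samples without it. Gbp2 had 72.0, 40.6 and 90.4 CPM, which overlaps CM + Rux through the low replicate 2 of both groups. Its log2 fold change of -0.89 (SE 0.30) had an adjusted p of 0.063, while in each replicate number it kept 48.9% to 59.5% of its level and the fit with the replicate block gave -0.91 (adjusted p = 0.00078). It was also called lower without CM + Rux replicate 2 (-1.15, adjusted p = 0.023) or CM + Rux + IKK-16 replicate 3 (-1.16, adjusted p = 0.042). DESeq2 (adjusted p = 0.018), the likelihood ratio test (0.027) and no low-count filter (0.00075) called Gbp2 lower too. The remaining levels were still above those of DMEM for Gbp2, Gbp3 and Gbp5, and 10.8 to 20.1 CPM for Gbp7 overlapped the 10.1 and 13.0 CPM of DMEM. These differences from DMEM were not tested.

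The IRGs kept the low level that they had with ruxolitinib. Irgm2 had 6.77, 7.61 and 7.89 CPM with IKK-16, a log2 fold change of 0.01 (SE 0.18, adjusted p = 0.98). Igtp had 6.88, 7.36 and 7.48 CPM (-0.06, SE 0.19, adjusted p = 0.88), and Ifi47 4.87, 4.16 and 4.98 CPM (0.06, SE 0.18, adjusted p = 0.86). All 3 overlapped CM + Rux. Irgm1 was the exception, at 32.0, 25.0 and 27.9 CPM above every sample of CM + Rux. Its log2 fold change of 0.45 (SE 0.14, adjusted p = 0.043) is short of the fold threshold, and it was called higher under total counts (0.55) and without CM + Rux + IKK-16 replicate 2 (0.54). Iigp1 had 1 fragment in the 3 samples, and no fold is given.

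**Figure D4:**
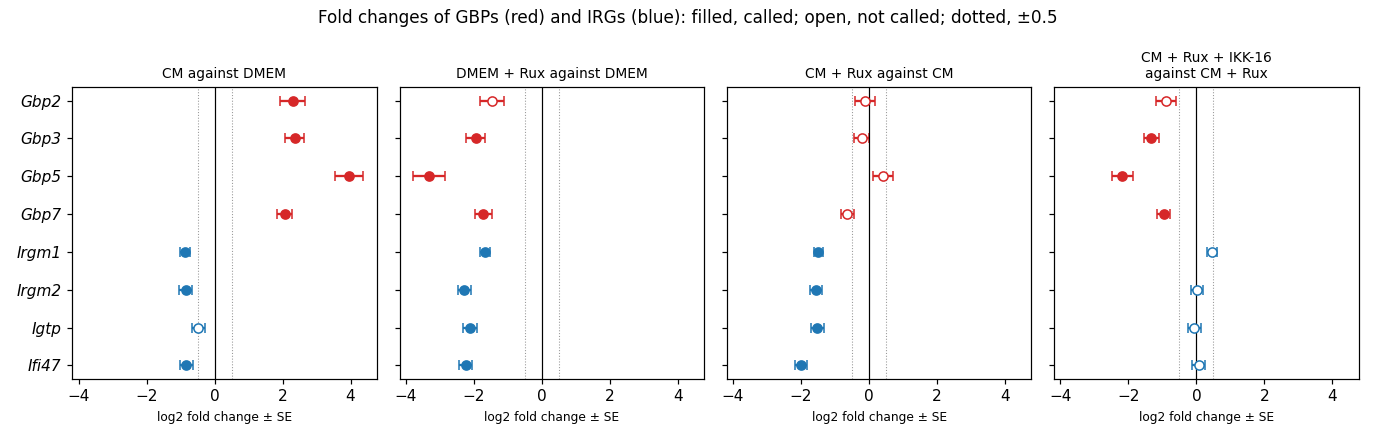
Log2 fold changes with their SE (horizontal axis) of 4 GBPs (red) and 4 IRGs (blue) in 4 comparisons from the model of all samples. Filled points are called and open points are not, and dotted lines mark the fold threshold of 0.5. The GBPs and IRGs drawn part in CM against DMEM, in CM + Rux against CM and with IKK-16, and both lie on the left in DMEM + Rux against DMEM.

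In the 2 h samples Gbp2, Gbp3, Gbp5 and Gbp7 stayed high. In CM + Rux 2 h against CM + Rux 12.6% of all genes were called higher and 10.7% lower, and of the 9 members 1 was called higher and 0 lower. Gbp5 had 194 and 421 CPM in the 2 h samples, of which the first lies within the range of CM + Rux and the second above it. Its log2 fold change was 0.67 (SE 0.33, adjusted p = 0.12), and the model of the compared groups with the replicate block gave 0.61 (adjusted p = 0.015). Set against CM + Rux, replicate 3 alone gave 1.12 (adjusted p = 0.025) and replicate 2 alone 0.0046, with the spread taken from the other groups. Ifi47, the member called, had 7.31 and 5.72 CPM against 3.97 to 5.64 CPM in CM + Rux, a rise of 0.56 (SE 0.20, adjusted p = 0.043). It was not called under total counts (0.49, adjusted p = 0.067) or in the model of the compared groups, with the replicate block (0.53, adjusted p = 0.098) or without it (0.57, adjusted p = 0.086). Nor was it called without CM + Rux 2 h replicate 2 (0.35, adjusted p = 0.36), CM + Rux replicate 1 (0.48, adjusted p = 0.12) or CM + Rux replicate 2 (0.47, adjusted p = 0.13). Igtp had 6.32 and 3.56 CPM, below all CM + Rux samples, with a value of -0.56 (SE 0.22, adjusted p = 0.056) of -0.62 (adjusted p = 0.011) with the replicate block and of -1.08 (adjusted p = 0.0079) for replicate 3 alone, with the spread again from the other groups.

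Other genes of the same families were read from a list of 18, of which 11 were tested. In CM against DMEM 2 of them were called higher and 8 lower (median -1.76, beside -0.005 over all genes). In CM + Rux against CM 0 were higher and 7 lower (median -1.97), in DMEM + Rux against DMEM 0 and 7 (median -1.31) and in CM + Rux + IKK-16 against CM + Rux 2 and 0 (median -0.05). In CM + Rux 2 h against CM + Rux 6 were higher and 0 lower (median 1.35), where 12.6% of all genes were called higher. Gbp2b, the neighbour and close relative of Gbp2, had 23.9 ± 4.36 CPM in DMEM (SD, n = 2) and 97.2 ± 23.7 CPM in CM (SD, n = 3), a rise of 2.02 (adjusted p = 6e-04), and a value of -0.04 with ruxolitinib in CM (adjusted p = 0.99). With IKK-16 it was at 46.1 ± 17.7 CPM (SD, n = 3), a value of -1.04 (adjusted p = 0.052). Gbp4 and Gbp9 differed from it. Gbp4 fell with ruxolitinib in CM by 1.97 (adjusted p = 0.0060) and Gbp9 by 1.24 (adjusted p = 0.0041). In CM against DMEM Gbp9 was lower (-1.22, adjusted p = 0.00033) and Gbp4 was not called (-0.45, adjusted p = 0.28). With IKK-16 neither was called (Gbp4 -0.94, adjusted p = 0.18, and Gbp9 -0.05, adjusted p = 0.90). Gbp9 was higher in the 2 h samples than in CM + Rux (1.74, adjusted p = 8.2e-05). Tgtp2, an IRG that loads onto vacuoles, had 9.11 ± 2.27 CPM in DMEM (SD, n = 2) and 1.65 ± 0.282 CPM in CM (SD, n = 3), a fall of 2.44 (adjusted p = 3.8e-06), and fell by 2.61 more with ruxolitinib (adjusted p = 4e-04). The IRG genes 9930111J21Rik2 and Gm5431 had 58.2 ± 14.6 and 53.7 ± 21.1 CPM in DMEM (SD, n = 2), and fell in CM by 4.96 (adjusted p = 1e-09) and 2.94 (adjusted p = 1.2e-06). With IKK-16, 9930111J21Rik1 (2.48, adjusted p = 0.0075) and 9930111J21Rik2 (2.03, adjusted p = 2e-04) rose, to means of 1.19 and 2.35 CPM. Irgq, a distant relative of the family, rose in CM by 0.78 (adjusted p = 5e-07) and had a value of 0.07 with ruxolitinib (adjusted p = 0.72).

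The interferons and the carriers of their signal were measured in the same samples. Ifng, the gene of interferon-γ, had 0 fragments in all 16 samples, which allows up to 3 counts in a library or at most 0.175 CPM. Ifnb1 had 2 to 12 fragments per group, and both were below the filter. Of 18 genes tested of a list of 20 ligands, receptors and signal carriers, 9 were called higher and 3 lower in CM (median 0.29), and 0 were higher and 5 lower with ruxolitinib in CM (median -0.28). Jak2 had 60.6 ± 15.5 CPM in DMEM (SD, n = 2) and 731 ± 30.6 CPM in CM (SD, n = 3). Irf9 fell with ruxolitinib by 1.46 in CM (adjusted p = 4.1e-05) and by 1.84 in DMEM (adjusted p = 7.6e-06). Socs1, which inhibits JAK kinases, moved with the GBPs in some comparisons. It rose in CM by 4.32 (adjusted p = 1e-09) and had a value of -0.26 with ruxolitinib there (adjusted p = 0.29). It fell with IKK-16 by 1.56 (adjusted p = 9.5e-06) and with ruxolitinib in DMEM by 1.76 (adjusted p = 0.00098). In the 2 h samples it parted from them, with a fall of 1.80 against CM + Rux (adjusted p = 1.2e-06), where no GBP member was called. With IKK-16 0 of the 18 genes were higher and 3 lower (median -0.23), and with ruxolitinib in DMEM 0 and 5 (median -0.16).

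Antiviral interferon-stimulated genes were also read. Of 23 genes tested, 0 were higher and 8 lower in CM (median -0.42), where 24.1% of all genes were lower, 0 and 17 with ruxolitinib in CM (median -2.04), 0 and 22 with ruxolitinib in DMEM (median -3.41) and 0 and 1 with IKK-16 (median -0.20), the 1 being Mx1 (-2.20, adjusted p = 0.0017), named after its value was seen. Ifit3 had the largest fall, with -3.25 in CM (adjusted p = 4.6e-06) and -4.06 with ruxolitinib in CM (adjusted p = 0.00026). Ifit2 followed in CM (-3.07, adjusted p = 8.6e-06) and Mx2 with ruxolitinib in CM (-3.78, adjusted p = 0.00044). Genes induced by interferon-γ, of which 17 of 22 were tested, were split. In CM 8 were higher and 1 lower (median 0.56), with Nos2 (8.99, adjusted p = 6.3e-06) and Cd274 (5.01, adjusted p = 9.4e-09) highest and Ciita lower (-0.89, adjusted p = 0.027). The DMEM mean of Nos2 was only 2.30 times the 0.138 CPM of 3 counts in a library of DMEM + Rux. Nos2 thus passed the low-count filter only through the CM groups, where it is high. With ruxolitinib in CM 0 were higher and 3 lower (median -0.26), with the largest falls in Cd274 (-0.91, adjusted p = 0.016) and Tap1 (-0.81, adjusted p = 0.0025). With IKK-16 0 were higher and 2 lower (median -0.28), and with ruxolitinib in DMEM 0 and 4 (median -0.43).

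Genes through which GBPs act were also read. Of 12 inflammasome genes 8 were higher and 1 lower in CM (median 0.81), with Il1b (5.86, adjusted p = 3.3e-07) and Mefv (3.57, adjusted p = 3.3e-06) highest and Aim2, a sensor of DNA, lower (-0.72, adjusted p = 0.00015). None was called with ruxolitinib in CM (median -0.09), where 0 were higher and 0 lower, and 3 were lower with IKK-16 (median -0.39). Of 17 genes tested for vacuole targeting and autophagy conjugation, 3 were higher and 3 lower in CM (median 0.08). Tax1bp1 rose by 1.13 (adjusted p = 1.2e-07) and Traf6 by 0.90 (adjusted p = 4.1e-07), and Atg7 (-1.17, adjusted p = 3.8e-06) and Trim21 (-0.67, adjusted p = 4.7e-05) fell. With ruxolitinib in CM Sqstm1 rose (0.66, adjusted p = 0.048) and Rnf213 fell (-1.74, adjusted p = 0.00028), while with IKK-16 2 were higher and 1 lower (median 0.05). Of 6 genes for the lipid modification by which several GBPs attach to membranes, 0 were called in CM, with ruxolitinib in CM or with IKK-16 (medians 0.09, 0.03 and -0.05).

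Among all genes tested, those with the pattern most like Gbp5 over the 16 samples were Cd40 (Pearson's r of 0.987 between log2(CPM + 1) values), Socs7 (0.984) and Nfkb2 (0.976). Those most like Iigp1 were Ifit3b (0.981), Tnfsf10 (0.978) and Ifit1bl1 (0.97). Iigp1 exceeded 0.564 CPM in the DMEM samples alone, so its correlations rest mainly on these. Cd40 is a receptor of the TNF receptor family and Nfkb2 encodes a subunit of NF-κB, while Ifit3b and Ifit1bl1 belong to the interferon-induced Ifit family. These values describe likeness only, since the samples share the 6 treatments and are not independent points.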

How the data were processed

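RNA of 16 BMDM samples in 6 groups was analysed, with groups and replicate numbers as the labels give them. The authors trimmed reads with Trimmomatic 0.33, aligned them to GRCm38 with HISAT2 2.1.0 and counted fragments per gene with featureCounts 1.6.2, per the file headers on the strand of the library and without fragments that align to several places or overlap several genes. The deposited values are whole-number counts of 55487 genes, neither scaled nor filtered. Symbols were matched for 55141 identifiers through GENCODE M21 names (GRCm38), the Ensembl 100 annotation not being used here, and the others hold at most 0.0459% of a sample's counts. Counts were scaled by RLE, and the 12372 genes that exceeded 1 CPM in 2 or more samples were fitted in 1 model of 6 groups with the quasi-likelihood test of edgeR 4.0.16 (limma 3.58.1, R 4.3.3). SE was taken as the log2 fold change divided by the root of F. Other steps used Python 3.11.15. On simulated data the test was checked before use. The alternatives were TMM, total counts, other filters and thresholds, DESeq2 1.42.0, the likelihood ratio test, a replicate block, models of the compared groups and each sample left out. A group in which every library has at most 3 counts was taken as at the limit of detection, which covers counting error only. Samples of equal replicate number deviated from their group means together, with correlations of 0.159 to 0.756 in the comparisons of 3 pairs and 0.224 to 0.446 in those of 2. The numbers were therefore taken to pair the samples, although the labels do not say what they stand for. The main model leaves this pairing out, and the fits with a replicate block take it in, so calls that differ between them are given for both. Replicates differed by more than counting noise (a chi-square of 14.2 to 54.4 for each degree of freedom). The members, gene lists and tests were chosen with earlier results of these data known. All members are named, with any genes of the lists of family and interferon signalling genes, and from other lists up to 2 called genes with the largest changes in each direction in CM against DMEM and in CM + Rux against CM. For likeness to Gbp5 and Iigp1, the 3 genes with the highest correlation are named. Counts of list genes are a description, without a test of the list. A signalling gene of these lists is not reported here.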

Additional observations from a re-analysis of the deposited data

Results flagged for a closer look

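In the main fit, the effect of ruxolitinib differed between the media for Gbp5 alone of the members, by a test of the difference itself. With the replicate number as a block, the same test also called Gbp2 (adjusted p = 0.0063), Gbp3 (0.0020) and Gbp7 (0.013). For Gbp5 the log2 fold change in the main fit was -3.31 in DMEM and 0.42 in CM, a difference of 3.72 (SE 0.56, adjusted p = 0.012 by edgeR's quasi-likelihood test). It was lower in DMEM + Rux than in DMEM in 3 of 3 samples and higher in CM + Rux than in CM in 3 of 3 samples. Without DMEM replicate 1, which leaves 1 DMEM sample, the adjusted p was 0.091.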

How the results depend on the processing

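Of 256 recomputed counts of called members, 228 stayed within 1.5 times the main count and 28 did not, and of 893 recomputed log2 fold changes of members 816 kept their direction and side of the threshold, 53 passed it newly, 8 no longer passed it and 16 reversed. The cause was not tested. In CM + Rux + IKK-16 against CM + Rux, 1 member was called higher under total counts and without the fold threshold, in place of 0. In CM + Rux 2 h against CM + Rux, 0 members were higher under total counts and in the model of the compared groups and 2 without the low-count filter, in place of 1, and 1 was lower, in place of 0, under total counts, no filter, the replicate block, DESeq2, the likelihood ratio test, an adjusted p under 0.1 and an unadjusted p under 0.05. For the interaction, members called higher were 2 under total counts, the model of the compared groups and an adjusted p under 0.1, 3 under DESeq2 and the likelihood ratio test, 4 without the filter and with the replicate block (both models), and 7 at an unadjusted p under 0.05, in place of 1. Calls over all genes grew too, from 29 higher to 49 under total counts, 147 under DESeq2 and 150 under the likelihood ratio test. They were 213 without the filter, 247 with the replicate block, 173 with it in the compared groups and 433 at the unadjusted p. Reversed values were, under total counts, Igtp with IKK-16 (0.029) and in CM + Rux against DMEM + Rux (-0.19), and in the 2 h samples Gbp3 (-0.026) and Irgm2 (-0.043), the last also with the replicate block (-0.0535). None of these values was called. Neither model with the block changed another call of a member than those given with a block in the text. With single samples left out, members called lay between 0 and 1 (2 h, higher and lower, and IKK-16, higher), 1 and 2 (CM + Rux against DMEM + Rux, lower) and 0 and 2 (interaction, higher). Over the same omissions the log2 fold change lay between -0.27 and 0.23 for Irgm2 and -0.22 and 0.27 for Gbp3 (2 h), -0.035 and 0.074 for Irgm2 and -0.028 and 0.22 for Ifi47 (IKK-16), -0.28 and 0.13 for Gbp2 (CM + Rux against CM) and -0.10 and 0.42 for Irgm1 (interaction). Over all genes the block raised the calls in CM + Rux against CM from 149 higher and 263 lower to 305 and 440, and for the interaction from 29 and 22 to 247 and 197. Depth limits Iigp1 and Gbp6, for which no fold is given where a group has at most 3 counts in every library, other than the bound for Iigp1 in DMEM.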
